A study of Brachypodium distachyon with 6 samples.

Results

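The genes described here are 5 *Brachypodium distachyon* relatives of the CLAVATA and fasciated ear genes of other plants, *BdFCP1*, *BdCLV1*, *BdFEA2*, *BdFEA3* and *BdFEA4*, out of 36647 genes in the count table. They were taken by name and by their Bd21-3 identifiers, which the study lists in its gene table, and all 5 were found among the counted genes. Leaf developmental zones of 3 wk old, soil-grown Bd21-3 wild-type plants were either digested with Macerozyme R10 and Cellulase Onozuka RS, which dissolves the cell walls and frees single cells (protoplasts), or left undigested. Each group had 3 biological replicates, with 10 leaf zones pooled per protoplast sample and 5 per undigested sample, and polyadenylated RNA was sequenced in bulk. The comparison asks which genes change their measured expression with protoplasting. The titles and library names of all 6 samples disagree with the treatment entry of their labels, which gives the opposite group each time. Groups are therefore named by title, as libraries labelled protoplasted or labelled non-protoplasted, and every direction below would turn around if the treatment entry were right.

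CLAVATA signalling limits the number of stem cells in plant meristems. Small secreted CLE peptides bind receptors with leucine-rich repeats (LRRs) at the surface of neighbouring cells, and in *Arabidopsis thaliana* this signal restrains the stem cell promoting gene *WUSCHEL*. In maize, mutants of the fasciated ear genes form enlarged, flattened inflorescence meristems, and in rice and maize the peptide gene *FCP1* acts in the shoot apex and in young leaves. No sequence is shown, because neither the Bd21-3 identifiers nor the older Bradi identifiers of these genes matched the RefSeq gene table used here.

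Total counts on genes ran from 17482438 to 24621927 per library. Expression between groups is given in CPM, counts per 1000000 counts of the library after TMM scaling, which corrects for composition, and 3 counts stood at 0.106 to 0.205 CPM. This floor and the interval given for *BdFCP1* cover counting error only. Replicate 1 labelled protoplasted stood apart from its group: chi-square divided by its degrees of freedom, over the genes tested below, was 44.1 and 37.1 against replicates 2 and 3 and 11.4 between those. Fold changes come from edgeR's quasi-likelihood test on 23677 genes with enough counts, with Benjamini-Hochberg adjusted p over all of them.

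Among the 5, 2 were called higher with the protoplasted label, *BdFEA3* by 4.08-fold and *BdFEA2* by 2.30-fold. *BdCLV1* and *BdFEA4* lay between 0.370 and 1.63 CPM in all libraries and did not pass the test, and *BdFCP1* had too few counts to be tested. None of the 4 tested genes was called lower (0 at an adjusted and 0 at an unadjusted p under 0.05 in edgeR). Over all genes tested, 38.7% were called higher and 38.3% lower, and 2 calls among 4 tested genes are to be read beside those shares. The plot of CPM by library shows the values behind these calls.

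**Figure D1:**
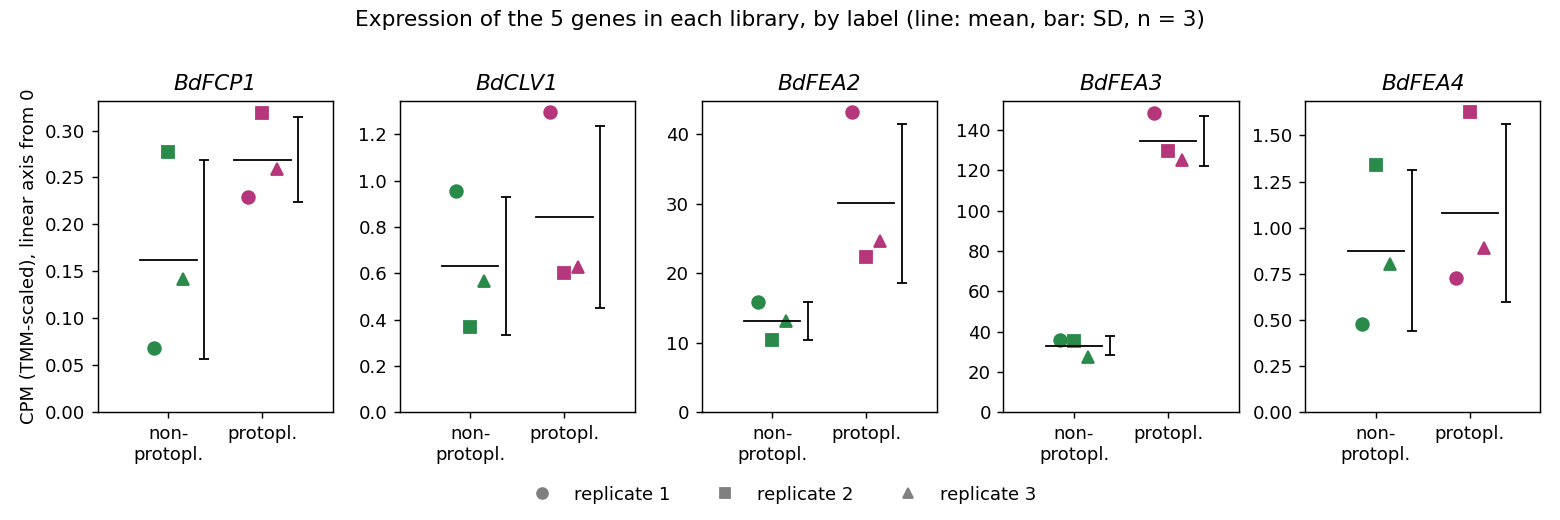
CPM (linear axis from 0, a scale of its own for each gene) of the 5 genes in the 3 libraries labelled non-protoplasted (green) and the 3 labelled protoplasted (magenta). Symbols mark the replicate number, lines the mean and bars the SD (n = 3). The groups are apart for *BdFEA2* and *BdFEA3* and overlap for *BdFCP1*, *BdCLV1* and *BdFEA4*.

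*BdFCP1* (BdiBd21-3.5G0168500) is the peptide gene of the group. Its relatives in rice and maize encode a CLE peptide, and in rice *FCP1* represses the homeobox gene *WOX4*. Replicates 1, 2 and 3 labelled protoplasted held 6, 9 and 7 counts of *BdFCP1*, while those labelled non-protoplasted held 1, 6 and 3. In CPM these were 0.229, 0.319 and 0.259 against 0.0682, 0.278 and 0.142. The groups overlapped, since replicate 2 labelled non-protoplasted exceeded replicates 1 and 3 labelled protoplasted. Summed over libraries, 22 counts stood against 10, a ratio of 1.55 with an exact conditional 95% interval of 0.705 to 3.67. The log2 ratio of the mean CPM was 0.73, and 1.36 without replicate 2 labelled non-protoplasted. A difference in *BdFCP1* was therefore not detected at this depth. The interval allows a ratio as low as 0.705 or as high as 3.67, and it covers counting error only.

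*BdCLV1* (BdiBd21-3.1G0402200) is related to *Arabidopsis CLAVATA1*, rice *FON1* and maize *TD1*, LRR receptor kinases that perceive CLE peptides. It had 34, 17 and 17 counts in replicates 1, 2 and 3 labelled protoplasted, or 1.30, 0.602 and 0.629 CPM. In the libraries labelled non-protoplasted it had 14, 8 and 12 counts, or 0.955, 0.370 and 0.567 CPM. Replicate 1 was the highest library of each group, and replicate 1 labelled non-protoplasted lay above replicates 2 and 3 of the other group. The means were 0.843 ± 0.394 and 0.631 ± 0.297 CPM (SD, n = 3 each). The log2 fold change of 0.47 (standard error, SE, 0.45, adjusted p = 0.364 from edgeR) had an approximate 95% interval from -0.55 to 1.48. This interval holds anything between 0.682-fold and 2.80-fold, so the test does not show that *BdCLV1* stayed the same. Without replicate 1 labelled protoplasted the log2 fold change of *BdCLV1* was 0.03 (adjusted p = 0.948 from edgeR).

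*BdFEA2* (BdiBd21-3.2G0427700) is related to maize *FEA2* and *Arabidopsis CLAVATA2*, which encode LRR receptor-like proteins without a kinase domain. Replicates 1, 2 and 3 labelled protoplasted had 1132, 631 and 667 counts of *BdFEA2*, or 43.2, 22.4 and 24.7 CPM. The libraries labelled non-protoplasted had 232, 224 and 278 counts, or 15.8, 10.4 and 13.1 CPM. All 3 libraries labelled protoplasted were above all 3 of the other group, and replicate 1 labelled protoplasted was well above replicates 2 and 3. *BdFEA2* rose from 13.1 ± 2.73 to 30.1 ± 11.4 CPM (SD, n = 3 each), a log2 fold change of 1.20 (SE 0.26, 95% interval 0.61 to 1.79, adjusted p = 0.00208 from edgeR). Without replicate 1 labelled protoplasted it was 0.85 (adjusted p = 0.00111 from edgeR). In a test against a change of at least 1 on the log2 scale, with glmTreat, *BdFEA2* did not pass (adjusted p = 0.176).

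*BdFEA3* (BdiBd21-3.2G0010000) is related to maize *FEA3*, an LRR receptor-like protein gene that in maize acts in the response to *FCP1* peptide from the organ primordia. With the protoplasted label it had 3892, 3655 and 3383 counts, and 526, 767 and 581 without. In CPM, 149, 129 and 125 stood against 35.9, 35.5 and 27.5. Every library labelled protoplasted had more than 3 times the CPM of any other library, and the spread within each group was small. *BdFEA3* rose from 32.9 ± 4.74 to 134 ± 12.5 CPM (SD, n = 3 each), a log2 fold change of 2.03 (SE 0.14, 95% interval 1.70 to 2.36, adjusted p = 1.24e-06 from edgeR). It was the only one of the 5 genes above a linear fold change of 3 with an adjusted p under 0.05, which 15.1% of all genes tested reached. No member reached a log2 fold change of 3, which 5.09% of all genes tested exceeded with an adjusted p under 0.05.

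*BdFEA4* (BdiBd21-3.1G0571300) is related to maize *FEA4*, a bZIP transcription factor gene that regulates shoot meristem size. Its counts were 19, 46 and 24 in replicates 1, 2 and 3 labelled protoplasted and 7, 29 and 17 in those labelled non-protoplasted. In CPM, 0.726, 1.63 and 0.889 stood against 0.477, 1.34 and 0.804. Replicate 2 was the highest in each group, and replicate 2 labelled non-protoplasted exceeded replicates 1 and 3 labelled protoplasted. The means were 1.08 ± 0.482 and 0.874 ± 0.437 CPM (SD, n = 3 each), with a log2 fold change of 0.27 (SE 0.43, 95% interval -0.71 to 1.25, adjusted p = 0.585 from edgeR). Without replicate 2 labelled protoplasted the sign turned, to -0.16 (adjusted p = 0.755 from edgeR).

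*BdFEA2* and *BdFEA3* were the members whose libraries did not overlap between the groups with the protoplasted label on the higher side, which held for 40.4% of all genes tested. *BdCLV1* and *BdFEA4* lie among 4996 tested genes with a mean of under 50 counts per library, of which 68.4% were called in one direction or the other. The filter kept genes with enough counts in either group alone, which favours genes that differ. This share therefore does not tell how low counts bear on *BdCLV1* and *BdFEA4*. The coefficient of variation of *BdCLV1* within groups was 46.8% and 47.1%, against 21.0% and 29.7% from counting alone. For *BdFEA4* it was 44.6% and 49.9%, against 18.4% and 23.8%. These values hold the differences between separate samples as well as counting error, and each rests on n = 3. In *BdFEA3* the variation was 9.27% in the libraries labelled protoplasted and 14.4% in the others.

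Levels of different genes were compared in TPM as deposited, which divides counts by gene length. In all 6 libraries *BdFEA3* was the highest and *BdFEA2* the next. *BdFEA3* had 104 to 131 TPM in the libraries labelled protoplasted and 19.6 to 25.3 TPM in the others, and *BdFEA2* had 15.6 to 32.0 and 6.21 to 8.68 TPM. The mean level of *BdFEA3* was above 95.7% of the genes with counts in the libraries labelled protoplasted and above 79.7% in the others. For *BdFEA2* these shares were 78.8% and 60.1%.

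*BdFEA4*, *BdFCP1* and *BdCLV1* shared the lowest places, and these neighbours in the order overlapped in both groups. They ran from 0.399 to 1.20 TPM in the libraries labelled protoplasted and from 0.161 to 0.849 TPM in the others. In replicate 1 of either group *BdCLV1* led the low 3 genes, and in replicates 2 and 3 of either group it came last. The short *BdFCP1* gene, with a listed length of 957 bases against 3467 to 4348 for the others, gains most from the division by length. The table does not say whether these lengths include introns. That could move the order of the last 3 genes and change the levels and shares compared between all members.

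**Figure D2:**
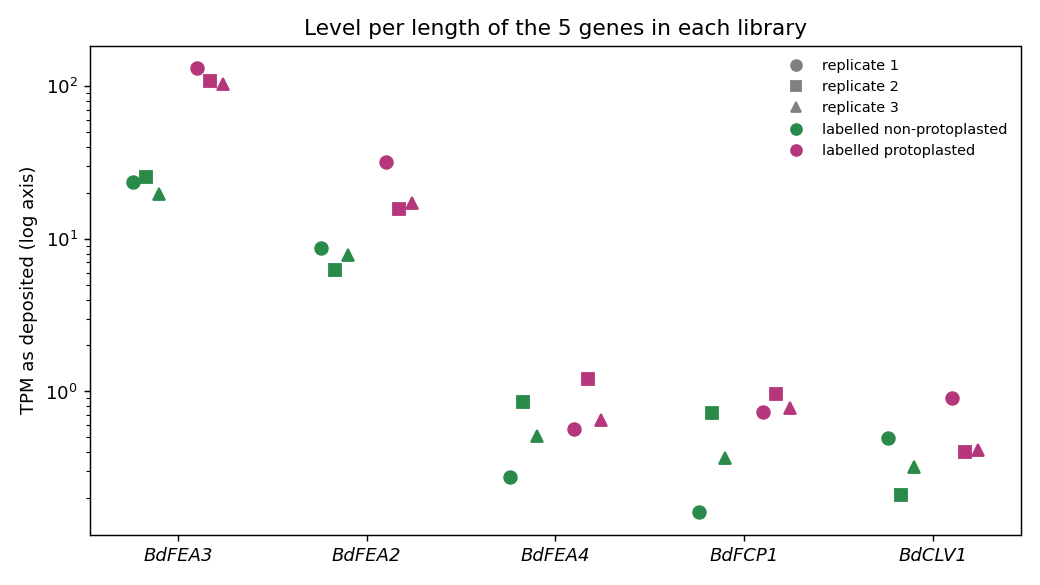
TPM as deposited (log axis) of the 5 genes in each library, ordered from the highest to the lowest gene. Green points are libraries labelled non-protoplasted, magenta points those labelled protoplasted, and symbols mark the replicate number. *BdFEA3* and *BdFEA2* stand above the other 3 genes in every library, and *BdFEA4*, *BdFCP1* and *BdCLV1* overlap.

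Of the summed TPM of these genes, *BdFEA3* made up 79.3% to 85.6% with the protoplasted label and 68.4% to 76.0% without. The share of *BdFEA2* was 12.4% to 19.4% in the former and 18.6% to 27.5% in the latter. The sum itself was 123 to 165 TPM against 28.6 to 33.3 TPM. In bulk samples, more cells of a type that expresses a gene and more RNA of that gene per cell cannot be told apart.

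How far the genes moved by different amounts was described with ratios within a library, which do not depend on how libraries are scaled against each other. There were 10 pairs, and an exact two-sided permutation test of 3 against 3 libraries cannot give a p under 0.1, so no pair could pass. The count ratio of *BdFEA3* to *BdFEA2* was 3.44, 5.79 and 5.07 in replicates 1, 2 and 3 labelled protoplasted and 2.27, 3.42 and 2.09 in the others. The groups only just failed to overlap, with 3.44 above 3.42. The difference was 0.88 on the log2 scale (exact permutation p = 0.1, adjusted over the 10 pairs p = 0.25, n = 3 each).

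Against *BdCLV1*, *BdFEA3* gained 1.60 on the log2 scale in the libraries labelled protoplasted, with count ratios of 115, 215 and 199 in replicates 1, 2 and 3 labelled protoplasted and 37.6, 95.9 and 48.4 in the others. Against *BdFEA4* it gained 1.69, and *BdFEA2* gained 0.72 against *BdCLV1*. These 3 pairs did not overlap either (each exact permutation p = 0.1, adjusted p = 0.25, n = 3 per group). Every pair without overlap holds *BdFEA3* or *BdFEA2*, the genes already called higher. How often other pairs of genes fail to overlap was not counted. The other 6 pairs overlapped, among them all 4 pairs with *BdFCP1*. The ratio of *BdFEA4* to *BdCLV1* differed by -0.09 between groups, and its SD within groups was 1.14 and 1.43, so a sizeable difference would not have been seen.

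**Figure D3:**
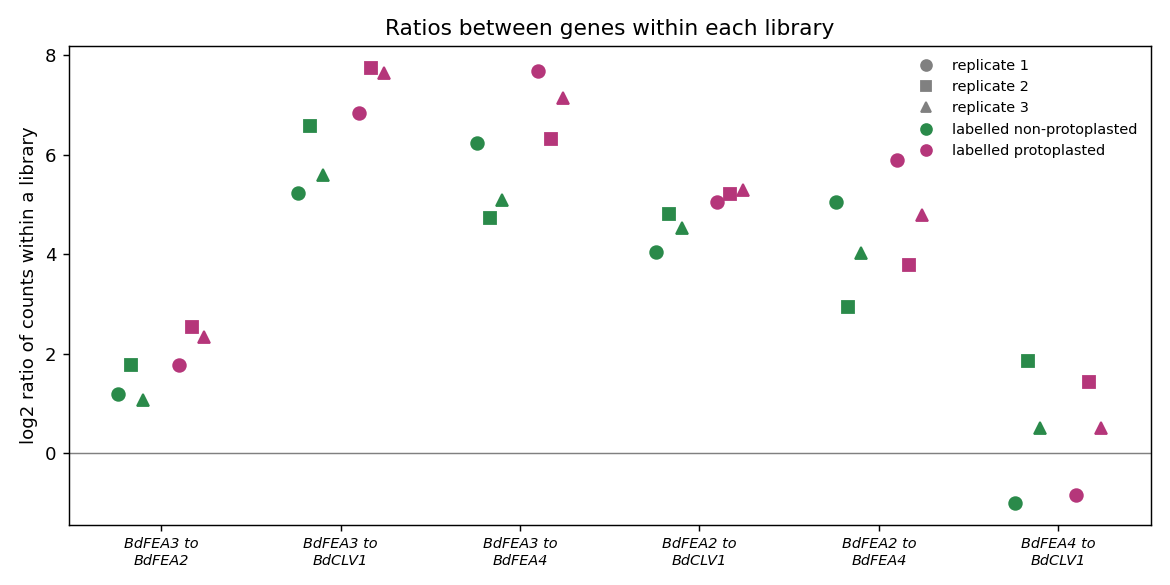
Log2 ratio of the counts of 2 genes within each library, for the 6 pairs without *BdFCP1*. Green points are libraries labelled non-protoplasted, magenta points those labelled protoplasted, and symbols mark the replicate number. The 3 ratios with *BdFEA3* on top and the ratio of *BdFEA2* to *BdCLV1* are apart between the groups, and *BdFEA4* to *BdCLV1* is not.

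Genes of the shoot apex and of leaf primordia were set beside the 5, since CLAVATA genes act there. *BdKN1* and *BdKNAT1-like*, KNOTTED-type homeobox genes that mark the meristem, had 0 counts in each of the 6 libraries. With 3 counts as the limit, this allows up to 0.205 CPM in the smallest library. These meristem markers were thus not detected at this depth in either group. All 6 samples were leaf developmental zones, while the study dissected shoot apices for separate single-cell libraries. Of the 8 genes of this list, 6 were tested, 5 were called higher with the protoplasted label and 0 lower (0 at an unadjusted p under 0.05 in edgeR), beside 38.7% higher and 38.3% lower over all genes tested. The median log2 fold change was 1.14 in this list and 0.04 over all genes tested. The lists of epidermis, vasculature and mesophyll genes given below had medians of 0.98, 1.15 and 1.33. The shift was thus not particular to genes of the apex.

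*BdWOX4*, whose relative is repressed by *FCP1* in rice, had 14, 14 and 10 counts with the protoplasted label and 2, 5 and 2 without. It rose by 1.55 on the log2 scale (SE 0.45, adjusted p = 0.0106 from edgeR), and its counts come near the lowest that were tested. *BdCRC*, a YABBY gene of leaf primordia, rose most in this list, with 4.74, 7.65 and 10.0 CPM against 0.750, 1.30 and 0.804 (log2 fold change 2.95, adjusted p = 3.71e-05 from edgeR). The auxin efflux carrier genes *BdPIN1b* and *BdPIN1a* had log2 fold changes of 1.52 and 0.76, and *BdAGO10*, an Argonaute gene needed for the shoot apex in *Arabidopsis*, had 0.61 (adjusted p = 0.000183, 0.00493 and 0.00369 from edgeR). The study saw *BdPIN1b* expressed more widely among its single cells and did not use it to name cell clusters. *BdPHB-like*, related to the leaf polarity gene *PHABULOSA*, did not pass (0.05, adjusted p = 0.756 from edgeR). The change of *BdFEA2* and *BdFEA3* thus lay within the range of this list, and that of *BdCLV1* and *BdFEA4* in its lower part.

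Other LRR receptors named by the study gave a mixed picture around *BdFEA2* and *BdFEA3*. Of 9 such receptors, all tested, 6 were called higher and 2 lower with the protoplasted label, beside 38.7% and 38.3% of all genes tested, with a median log2 fold change of 1.54. *BdTMM*, an LRR receptor-like protein gene that like *CLAVATA2* lacks a kinase domain, had a log2 fold change of 3.79, *BdPAN1* of 2.44, *BdERL1* of 1.70, the gene listed as *LRR kinase* of 1.54 and *BdERECTA* of 1.28. *BdPAN2*, whose maize relative acts in the polarity of stomatal subsidiary mother cells, was 10.6-fold higher. The SERK-type co-receptor genes *BdSERK1/2-like1* and *BdSERK1/2-like3* fell, the first 8.57-fold lower and the second with a log2 fold change of -1.65, and *BdSERK1/2-like2* did not pass (-0.17, adjusted p = 0.19 from edgeR). Of 3 genes for other secreted peptides, *BdEPF2-2* (2.91) and *BdSTOMAGEN-1* (1.73) rose and *BdEPF2-1* did not pass (0.13, adjusted p = 0.692 from edgeR).

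**Figure D4:**
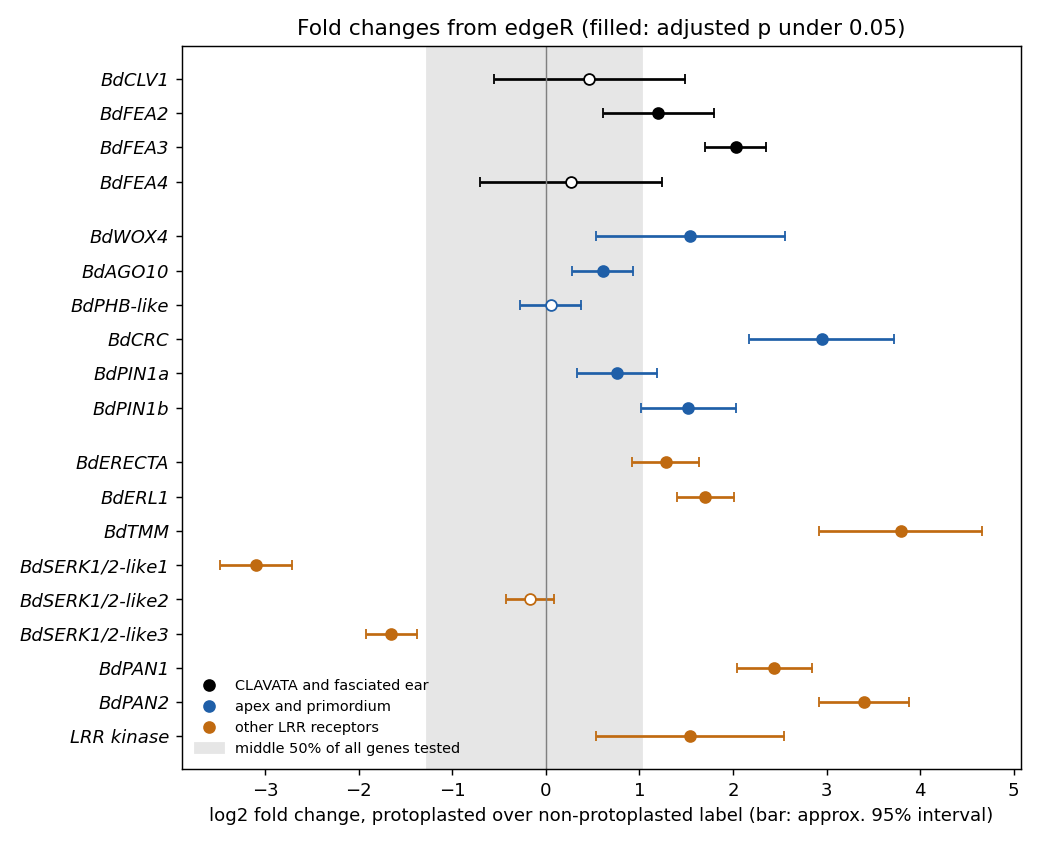
Log2 fold change from edgeR with an approximate 95% interval for the 4 tested members (black), 6 genes of apex and primordium (blue) and 9 other LRR receptor genes (orange). Filled points have an adjusted p under 0.05 and the grey band holds the middle 50% of all genes tested, from -1.27 to 1.03. *BdFEA2* and *BdFEA3* lie above this band, as do the 6 receptor genes called higher, and *BdCLV1* and *BdFEA4* lie within it.

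Genes that mark other leaf tissues changed in both directions. Of 4 epidermis genes, all tested, 2 were called higher, 1 lower and 1 not, beside 38.7% higher and 38.3% lower over all genes tested. Their summed level was 329 to 501 TPM in the libraries labelled protoplasted against 40.8 to 53.1 TPM, but *BdPDF1* alone made up 291 to 447 TPM of the former and 24.0 to 31.5 TPM of the latter. *BdHDG2-like* did not pass (log2 fold change 0.36, adjusted p = 0.07 from edgeR), and *BdWOX9C-like1* was lower, at 0 to 0.0596 TPM against 0.903 to 1.13 TPM. Of 8 genes of vasculature and bundle sheath, 7 were tested, and 4 were called higher and 2 lower, beside those same shares. Their sum of 356 to 384 against 140 to 151 TPM was mostly *BdXCP1-like*, with 296 to 329 against 83.3 to 90.1 TPM, while *BdSLAH2* was 105-fold lower. Both mesophyll genes were higher, with a sum of 127 to 145 against 49.0 to 53.9 TPM. None of these markers was at 0 counts in all libraries. The part that a change of tissue composition has in the fold changes of the 5 genes was not tested.

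The 65 other tested genes of the study's gene table were ranked by how close their profile over the 6 libraries came to each member, as the root mean square difference of log2 CPM centred on the gene's mean. This distance includes the difference between the groups, and the gene table holds many stomatal and epidermal genes, so such neighbours could come from the list alone. Closest to *BdFEA3* were *BdICE1*, a stomatal bHLH transcription factor gene (0.172), *BdSLP1-like5* (0.180) and the receptor gene *BdERL1* (0.214), where the median of the 65 genes was 0.673. Their log2 fold changes were 2.23, 2.29 and 1.70, beside 2.03 for *BdFEA3*. Closest to *BdFEA2* were *BdSCAP1-like* (0.236), *BdFAMA* (0.241) and *DUF567* (0.253), with a median of 0.723. *BdCLV1* came nearest to *BdFAMA* (0.381), *BdEPF2-1* (0.416) and *BdVND-like1* (0.424), and *BdFEA4* to *BdAGO10* (0.511), *BdHDG2-like* (0.532) and *BdMPK6-like* (0.542). These distances cannot be compared between members, since counting error adds more to those of *BdCLV1* and *BdFEA4*.

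Under 11 alternatives in scaling, filtering and model, *BdFEA3* kept an adjusted p of at most 2.53e-05 and a log2 fold change of 1.96 to 2.41. *BdFEA2* ranged from 1.13 to 1.59 and lost its call with glmTreat. *BdCLV1* and *BdFEA4* passed under none of the alternatives that could test them, at most 0.85 and 0.64. Scaling by library size only, which gave the highest value for each of the 4 genes, shifted the median of all genes tested by 0.38 on the log2 scale, and 61.21% of all calls were then higher, against 50.25% with TMM.

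**Figure D5:**
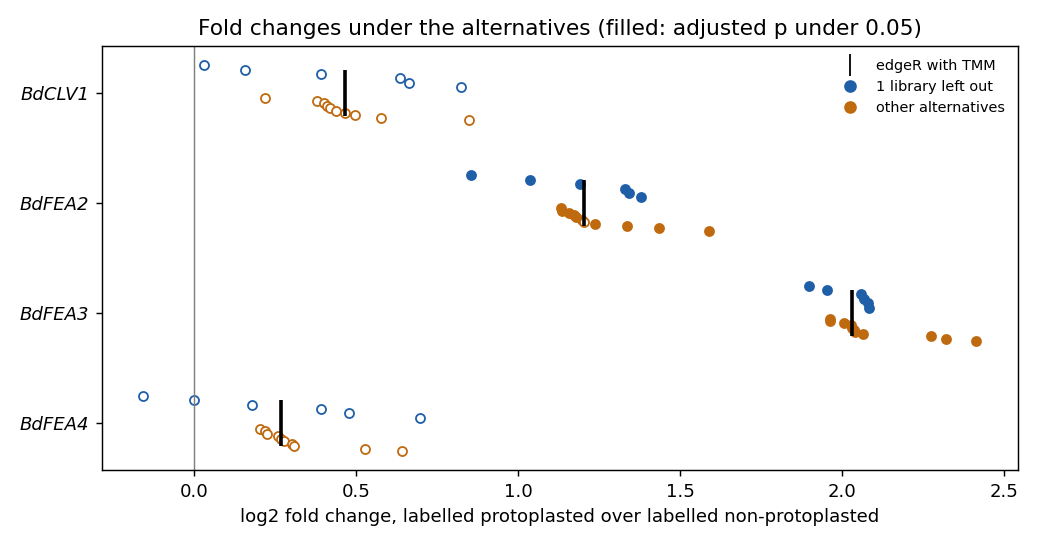
Log2 fold change of the 4 tested members with edgeR and TMM (vertical bar), with 1 library left out (blue) and under the other alternatives (orange), the exchange of groups not included. Filled points have an adjusted p under 0.05. *BdFEA3* stays between 1.90 and 2.41, *BdFEA2* between 0.85 and 1.59, and the open points of *BdFEA4* cross 0.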

How the data were processed

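Total RNA of 6 samples was sequenced as poly-A libraries made with a directional kit. The authors, after a FastQC check, aligned the reads to the Bd21-3 v1.1 genome using bowtie2 and counted them with summarizeOverlaps, and deposited these raw counts without normalization. Bowtie2 does not split reads over introns, and the counting mode and the use of strand are not given in the sources used here, so overlapping or antisense genes and near-identical copies could have lost or exchanged reads. Deposited as well were a signal in reads per kilobase, and TPM values that the authors scaled from it, with a mean TPM per group. The TPM equal count over listed length, scaled to the same sum in each library. No per-library column was left unused.

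Counts were tested in R 4.3.3 with edgeR 4.0.16 (filterByExpr at a minimum count of 10, TMM, glmQLFit, glmQLFTest, group only, Benjamini-Hochberg over 23677 genes, threshold 0.05), after a check on simulated data. Standard errors were taken from the fold change and its F statistic. Exact intervals and permutation tests used SciPy 1.17.1. Alternatives were DESeq2 1.42.0, RLE, library size only, 2 count filters, limma 3.58.1 (voom, and trend on log2(TPM + 1) and log2(TPM + 0.1)), a prior count of 2, glmTreat above 1, a replicate block, each library left out, and groups by the treatment entry. Named genes were the 5 members, the genes of lists taken from the study's gene table, and the 3 nearest profiles per member. Members and lists were chosen with earlier results of these data known.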

Additional observations from a re-analysis of the deposited data

How the results depend on the processing

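Groups by the treatment entry turned the log2 fold changes of *BdCLV1*, *BdFEA2*, *BdFEA3* and *BdFEA4* to -0.47, -1.20, -2.03 and -0.27, with 0 members higher and 2 lower. With glmTreat the log2 fold change of *BdFEA2* was the same 1.20 but was no longer called (adjusted p = 0.176), so that 1 member was higher. It called 10208 of all genes, against 18238 with the usual test. With 1 library left out, *BdFEA4* ranged from -0.16 to 0.70, *BdCLV1* from 0.03 to 0.82, *BdFEA2* from 0.85 to 1.38 and *BdFEA3* from 1.90 to 2.08, and the log2 ratio of mean CPM of *BdFCP1* from 0.36 to 1.36. Where this left 2 libraries in a group, their spread was pooled with the other group. At least 10 counts in every library left *BdCLV1* and *BdFEA4* untested. *BdFCP1*, *BdCLV1* and *BdFEA4* had at most 9, 34 and 46 counts in a library, and how far depth limits the calls of the latter pair was not tested.

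The replicate numbers are shared between groups, but no source states a pairing. Deviations from the group means correlated at 0.121, 0.0379 and 0.0832 across genes for the same number, and replicate 2 labelled protoplasted correlated better with replicate 3 of the other group. With the replicate block the log2 fold changes were 0.42 for *BdCLV1*, 1.16 for *BdFEA2*, 2.03 for *BdFEA3* and 0.31 for *BdFEA4*, and no call changed.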

Other observations

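After the values were seen, it was noticed that libraries of the same replicate number came in the same order of CPM in both groups for all 5 genes. *BdCLV1* and *BdFEA2* were highest in replicate 1 and lowest in replicate 2 of either group, *BdFEA4* and *BdFCP1* were highest in replicate 2 and lowest in replicate 1, and *BdFEA3* was highest in replicate 1 and lowest in replicate 3. The same order in both groups was found for 20.8% of 22887 tested genes without ties and for 2 of 29 tested genes of the other lists. The count ratio of *BdFEA4* to *BdCLV1* was 0.5 and 0.559 in the libraries numbered 1, and 3.63 and 2.71 in those numbered 2, with the non-protoplasted label first, and between these in those numbered 3. For *BdFEA3*, replicates 1 and 2 labelled non-protoplasted (35.9 and 35.5 CPM) are closer than the spread within groups, and *BdFCP1* rests on at most 9 counts.

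*BdCLV1* and *BdFEA2* also shared the high value in replicate 1 labelled protoplasted. Its log2 CPM lay 0.98 and 0.88 above the mean of replicates 2 and 3, a difference above that of 96.4% and 95.4% of all genes tested. For *BdFEA4* it lay 0.67 below (-0.67), under all but 7.73% of genes.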
